A study of Mus musculus with 4 samples.

Results

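Fat cells carry a set of hormone and lipid-store genes that white and brown fat have in common, and 10 of them were followed in kidney RNA of mice with beta-thalassemia: Adipoq, Retn, Lep, Plin (now Plin1), Cidec, Fabp4, Lpl, Pparg, Lipe and Pck1. They were found by the gene name on the array, by its accession or by a synonym, among 41174 probes that are not controls. The search gave 15 probes (33 spots) for 9 of the 10 genes, and Pck1 is not analysed here. After a filter on dim probes 13 probes of 8 genes remained, among 17628 genes tested. Ucp1, which marks brown rather than white fat cells, was measured beside them.

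Th3 mice model beta-thalassemia, an inherited anaemia, and carry a deletion of the adult beta-globin genes beta-major and beta-minor. Kidney RNA of 4 Th3 samples was compared with kidney RNA of 4 control samples on 4 two-colour arrays, with 1 sample of each kind per array. Cy5 labelled the Th3 RNA on the first 2 arrays and Cy3 labelled it on arrays 3 and 4. The labels give the strain of a sample as Th3 or control and its tissue as kidney, and give no zygosity, age or sex and no animal for a sample, so the p-values measure only the spread between these samples.

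Fat cells store triglyceride in a lipid droplet coated by proteins that restrain lipases, take up fatty acids through lipoprotein lipase and fatty acid binding proteins, and release hormones into the blood. The nuclear receptor encoded by Pparg drives most of this program in both white and brown fat cells. Brown fat cells add Ucp1, a carrier of the inner mitochondrial membrane that lets protons return without making ATP, so that fuel is burned for heat. A kidney is surrounded by fat and has fat around its vessels at the hilum, and the labels do not say how the tissue was trimmed.

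The array probes of the 2 hormone genes that passed the test and of Ucp1 are given because their ratios are read from these bases alone. The contrast below also uses the probes of the other genes, and does not use the second Retn probe. The positions are on mouse build mm8, as the array annotation gives them, all 4 on the plus strand: Adipoq at chr16:23072837-23072896, Retn at chr8:3656107-3656928 for the probe that stands for the gene and chr8:3656145-3656966 for the other, and Ucp1 at chr8:86187994-86188053. Each Retn probe has 60 bases but covers 822 bases of genome. The capitals mark the 22 bases that both Retn probes hold, so these probes are not independent of each other.
Adipoq: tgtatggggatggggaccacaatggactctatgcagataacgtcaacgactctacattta
Retn, brighter probe: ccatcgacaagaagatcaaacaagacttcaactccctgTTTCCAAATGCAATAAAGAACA
Retn, other probe: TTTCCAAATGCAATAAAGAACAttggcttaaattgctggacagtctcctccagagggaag
Ucp1: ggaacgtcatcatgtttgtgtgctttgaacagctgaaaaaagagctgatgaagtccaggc

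Between 64.9% and 72.1% of probes were well above background in the Th3 channel of an array, against 61.7% to 71.0% in the control channel, and no spot was saturated. Hbb-bt, an adult beta-globin gene and so a check of the labels, had log2 ratios of Th3 over control of -3.13, -3.16, -3.93 and -4.02 on arrays 1 to 4. All 10 markers of kidney cells, among them nephrin, uromodulin and aquaporin 2, passed the filter on dim probes. The fat-cell genes Adipoq, Plin1 and Cidec were well above background on all 4 arrays in both channels, so these kidney samples held fat-cell transcripts in both groups. Fabp4, which endothelial cells and macrophages also make, was well above background there too, and Lep was not.

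The adipocyte genes were mostly higher in the Th3 sample than in the control sample of the same array on arrays 1 to 3, and lower on array 4. Of 8 genes tested, 7 had that pattern of signs, and Retn, above 0 on all 4 arrays, was the other. The share of all genes with that pattern was not counted. Some of these signs rest on values near 0, as for Lpl on array 4 (-0.02) and Lipe on arrays 1 and 3 (0.07). The second probes of Lpl and Lipe did not have the pattern. All 4 ratios had 1 sign in 1 of the 8, against 19.7% of all genes with 4 positive and 17.4% with 4 negative ratios. Array 4 had the lowest ratio for 8 of 8 (28.4% of all genes) and array 2 the highest for 6 of 8 (23.8%). Adipoq and Retn passed the test as higher, the other 6 did not pass, and none passed as lower. With arrays of 1 dye orientation as a random block (estimated correlation 0.18), Retn alone passed, and Adipoq had an adjusted p of 0.158. Among all 17628 genes 10.9% passed as higher and 10.6% as lower, in limma's fit with a term for the dyes (Benjamini-Hochberg adjusted p under 0.05). The median log2 ratio of the 8 genes was 0.38, against 0.00 over all genes, and on arrays 1 to 4 in turn it was 0.58, 0.87, 0.52 and -0.45. The count of the 8 that passed as higher moved both ways with the processing. Retn alone passed in 5 settings: with the scanner software's processed signals (9.68% of all genes higher), without the filter on dim probes (6.66%), without the dye term (6.25%), with the random block (3.66%) and with robust variances on an intensity trend (10.8%). Without array 4 the log2 ratio fitted with the dye term was 1.45 for Adipoq, 1.40 for Cidec, 0.67 for Lpl, 0.50 for Fabp4 and 0.45 for Pparg. Without array 3 it was 0.56, 0.22, 0.22, 0.02 and 0.17 for the same genes in turn. With an array left out 1 dye orientation has a single array, so calls are not counted there. That array weighs as much in the fitted value as the 2 arrays of the other orientation, so the value is not their plain mean. With arrays centred on their median in place of loess, 4 passed (11.0%), and over all genes 1938 were higher and 1144 lower, against 1927 and 1866 with loess.

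**Figure D1:**
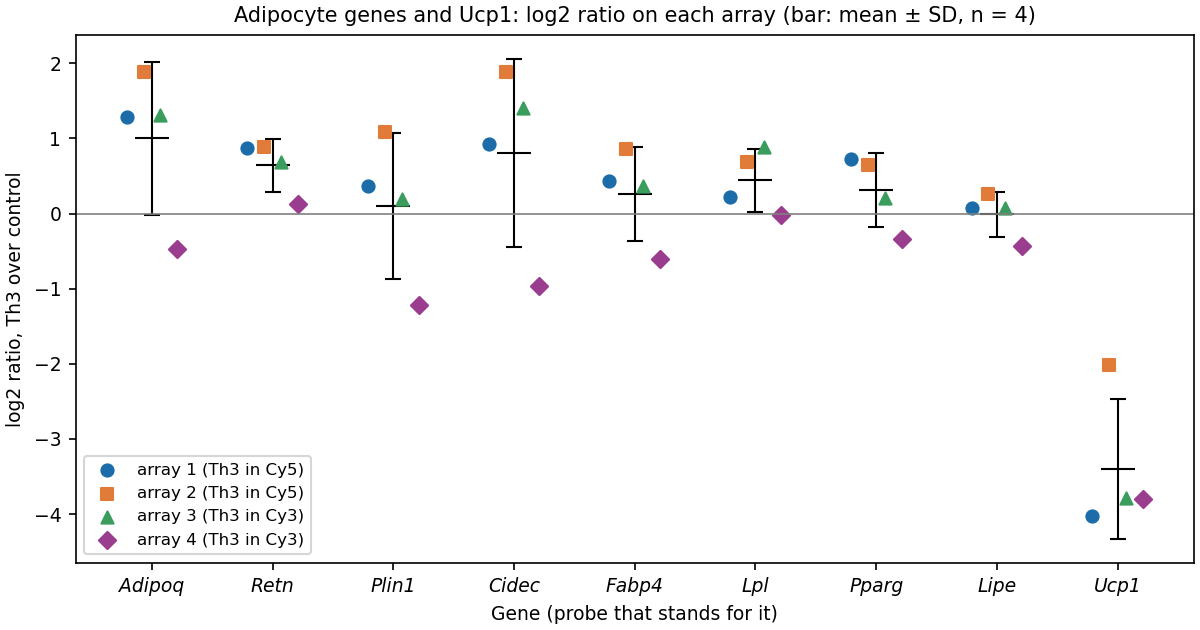
Log2 ratio of Th3 over control (vertical axis) for the probe that stands for each of 8 adipocyte genes and for Ucp1 (horizontal axis), 1 point per array, with black bars for the mean ± SD (n = 4). Array 4 is the lowest point for all 8 adipocyte genes and below 0 for all but Retn, while all 4 Ucp1 points lie between -4.02 and -2.01.

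The hormone genes gave the 2 calls. Adipoq encodes adiponectin, which fat cells release and which raises fatty acid oxidation and insulin sensitivity in other tissues. Its normalised channel intensity was 4591, 3220, 3440 and 2295 in the Th3 samples of arrays 1 to 4, against 1882, 873.0, 1390 and 3175 in the control samples. Th3 was the brighter sample on arrays 1 to 3 and control on array 4, and the 2 groups of intensities overlap. The log2 ratios were 1.29, 1.88, 1.31 and -0.47, with a mean of 1.00 ± 1.02 (SD, n = 4), or 2.00-fold higher in Th3. In limma's fit the SE was 0.26, the 95% confidence interval 0.37 to 1.64 and the adjusted p 0.0408. The fit takes the difference between the dye orientations out of the spread: the mean was 1.58 over arrays 1 and 2 and 0.42 over arrays 3 and 4. Without the dye term the adjusted p was 0.110, and with the pairs of equal orientation as a random block it was 0.158, so the call depends on how that difference is treated. The dye term of Adipoq itself was 0.58 (adjusted p 0.322). The authors' deposited table lists a fold of 2.08 for Adipoq with an adjusted p of 0.105.

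Retn encodes resistin, in mice a hormone of fat cells that lowers the response to insulin. Its intensity was 976.6, 940.7, 877.5 and 960.9 in the Th3 samples, against 535.6, 509.6, 548.9 and 877.0 in the control samples. Every Th3 value lay above every control value, though only by the margin between 877.5 in the Th3 sample of array 3 and 877.0 in the control sample of array 4. All Th3 intensities lay above all control intensities for 11.4% of the genes, and for Retn alone among the 8, and below them for 9.63% and for 0 of the 8. The log2 ratios were 0.87, 0.88, 0.68 and 0.13, with a mean of 0.64 ± 0.35 (SD, n = 4), or 1.56-fold higher (SE 0.09, 95% confidence interval 0.42 to 0.86, adjusted p 0.00658). The other Retn probe gave 0.67, 0.76, 0.91 and 0.34, a mean of 0.67 ± 0.24. Both probes put array 4 lowest and keep it above 0. Retn passed under every tested setting that kept all 4 arrays. For its 2 probes the authors' deposited table lists folds of 1.65 and 1.79 with adjusted p of 0.0241 and 0.00984.

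Lep encodes leptin, the hormone by which fat stores restrain appetite, and is much stronger in white than in brown fat. Its probe, printed 10 times on each array, cleared the background by the scanner's flag in the Th3 channel of 1 array and in the control channel of none. The intensity was 91.6, 78.0, 76.7 and 83.2 in Th3 samples, against 77.9, 78.0, 77.9 and 79.0 in control samples, which is not well above background in either group, save for 1 Th3 sample. The log2 ratios of 0.23, -0.00, -0.02 and 0.07 are those of a dim probe, and over its spots the SD was 0.02 to 0.08 on an array. A change in Lep was not detectable with this probe.

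The receptors of these hormones did not pass the test. Of Adipor1, Adipor2 and Cdh13, through which adiponectin is bound, and Lepr, the leptin receptor, 0 of 4 were called in either direction. Over all genes 10.9% were called higher and 10.6% lower. In limma's fit 1 of the 4 in each direction had an unadjusted p under 0.05, as had 3313 higher and 3099 lower of all 17628 genes. Among the receptors the smallest p was that of Cdh13, with a log2 ratio of -0.18 ± 0.08 and an adjusted p of 0.0699.

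Neither lipid droplet gene passed, and Cidec had the widest spread over arrays of the 8. Cidec helps small droplets fuse into the single large one of a white fat cell. Its intensity was 4612, 4756, 5377 and 2868 in Th3 samples, against 2437, 1285, 2034 and 5629 in control samples. On arrays 1 to 3 the Th3 sample was the brighter and on array 4 the dimmer. Log2 ratios of 0.92, 1.89, 1.40 and -0.97 resulted, and the mean of 0.81 ± 1.25 (SD, n = 4) did not pass (95% confidence interval -0.05 to 1.67, adjusted p 0.159). Plin1 encodes perilipin, the coat protein that keeps lipases off the droplet until it is phosphorylated. Its intensity was 958.5, 755.6, 778.7 and 819.4 in Th3 samples, against 747.3, 354.6, 681.2 and 1914 in control samples. The Th3 values lie within a narrow band inside the control range. The log2 ratios of 0.36, 1.09, 0.19 and -1.22 average 0.10 ± 0.97 (95% confidence interval -0.44 to 0.65, adjusted p 0.780).

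Lpl, Fabp4 and Lipe, which act in the uptake, carriage and release of fatty acids, did not pass the test. Lpl encodes lipoprotein lipase, which frees fatty acids from circulating triglyceride at the capillary wall. Its intensity was 31173, 30048, 30580 and 25187 in Th3 samples, against 26826, 18679, 16519 and 25507 in control samples. Arrays 1 to 3 put Th3 above control, and on array 4 the 2 samples were nearly equal. The log2 ratios were 0.22, 0.69, 0.89 and -0.02, a mean of 0.44 ± 0.42 that did not pass (95% confidence interval 0.08 to 0.80, adjusted p 0.0826). The second Lpl probe gave -0.01, 0.33, 0.62 and 0.10, a mean of 0.26 ± 0.28. Its lowest value is on array 1, so the 2 Lpl probes differ on which array stands lowest.

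Fabp4 encodes the fatty acid carrier of the fat cell cytoplasm, which endothelial cells and macrophages also make. Its intensity was 54229, 39265, 41480 and 37826 in Th3 samples, against 40117, 21622, 32345 and 57513 in control samples. The highest and the lowest of the 8 values are both control samples. The log2 ratios of 0.43, 0.86, 0.36 and -0.60 average 0.26 ± 0.62 (95% confidence interval -0.11 to 0.63, adjusted p 0.273). The other Fabp4 probes averaged 0.22 ± 0.54 and 0.34 ± 0.49, and both were above 0 on arrays 1 to 3 and below 0 on array 4.

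Lipe encodes hormone-sensitive lipase, which releases stored fatty acids when fat cells receive an adrenergic signal. Its intensity was 328.2, 343.7, 349.6 and 288.2 in Th3 samples, against 312.1, 286.5, 332.9 and 389.3 in control samples. All 4 Th3 values lie within the control range. In log2 the ratios were 0.07, 0.26, 0.07 and -0.43, with a mean of -0.01 ± 0.30 (95% confidence interval -0.22 to 0.21, adjusted p 0.967). Another probe gave -0.13, 0.17, 0.03 and -0.38, a mean of -0.08 ± 0.23. A further probe, matched through a synonym, cleared the background by the scanner's flag on 0 of 4 arrays in either channel.

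Pparg encodes the receptor that drives fat cell formation. Its intensity was 1415, 1038, 932.0 and 1013 in Th3 samples, against 861.6, 660.9, 807.9 and 1282 in control samples. The order of the control samples is that of Adipoq, with array 4 highest and array 2 lowest. Its log2 ratios were 0.72, 0.65, 0.21 and -0.34, and the mean of 0.31 ± 0.49 lay just outside the threshold (95% confidence interval 0.09 to 0.53, adjusted p 0.0572). This probe was printed 10 times per array, and the SD over its spots was 0.04 on every array. Spots of 1 array share a pair of samples, so that SD measures the printing and reading of spots and not the spread between samples.

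**Figure D2:**
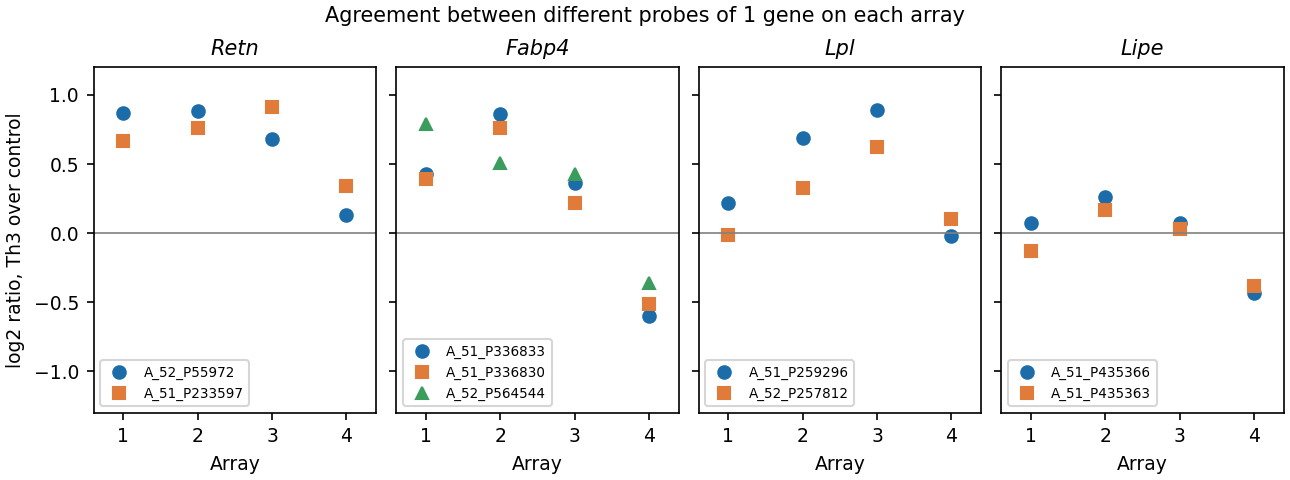
Log2 ratio of Th3 over control (vertical axis) on arrays 1 to 4 (horizontal axis) for the genes with more than 1 kept probe, with a symbol per probe. Both Retn probes stay above 0 on all arrays, all 3 Fabp4 probes fall below 0 on array 4 only, and the Lpl probes lie at -0.02 and 0.10 on array 4.

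The control samples varied more than the Th3 samples in these genes. For all 8 genes the control intensities spanned a wider fold range than the Th3 intensities, which held for 54.8% of all genes. The control sample of array 4 was the highest and that of array 2 the lowest for 7 of the 8, all but Lpl, against 9.82% of all genes (22.3% had their highest control sample on array 4 and 29.7% their lowest on array 2). The highest control intensity was 5.40 times the lowest for Plin1, 4.38 times for Cidec, 3.64 times for Adipoq and 2.66 times for Fabp4. In Th3 samples the same quantity was 1.27 for Plin1, 1.87 for Cidec, 2.00 for Adipoq and 1.43 for Fabp4. A control range as wide as that of Plin1 was found in 0.136% of genes, as that of Cidec in 0.176% and as that of Adipoq in 0.250%. In a whole organ, more fat cells and more RNA per fat cell cannot be told apart.

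These intensities carry dye effects, since the control samples are in Cy3 on arrays 1 and 2 and in Cy5 on arrays 3 and 4, but the order also holds within a dye. For Adipoq the control sample of array 1 was 2.16 times that of array 2, and that of array 4 was 2.28 times that of array 3. For Cidec these folds were 1.90 and 2.77, for Plin1 2.11 and 2.81, and for Fabp4 1.86 and 1.78. Among Th3 samples the corresponding folds were 1.43 and 0.667 for Adipoq, 0.970 and 0.533 for Cidec, 1.38 and 0.912 for Fabp4, and 1.27 and 1.05 for Plin1. Of these 4 genes Plin1 alone had the control order within both dyes in its Th3 samples too, over a narrower range.

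**Figure D3:**
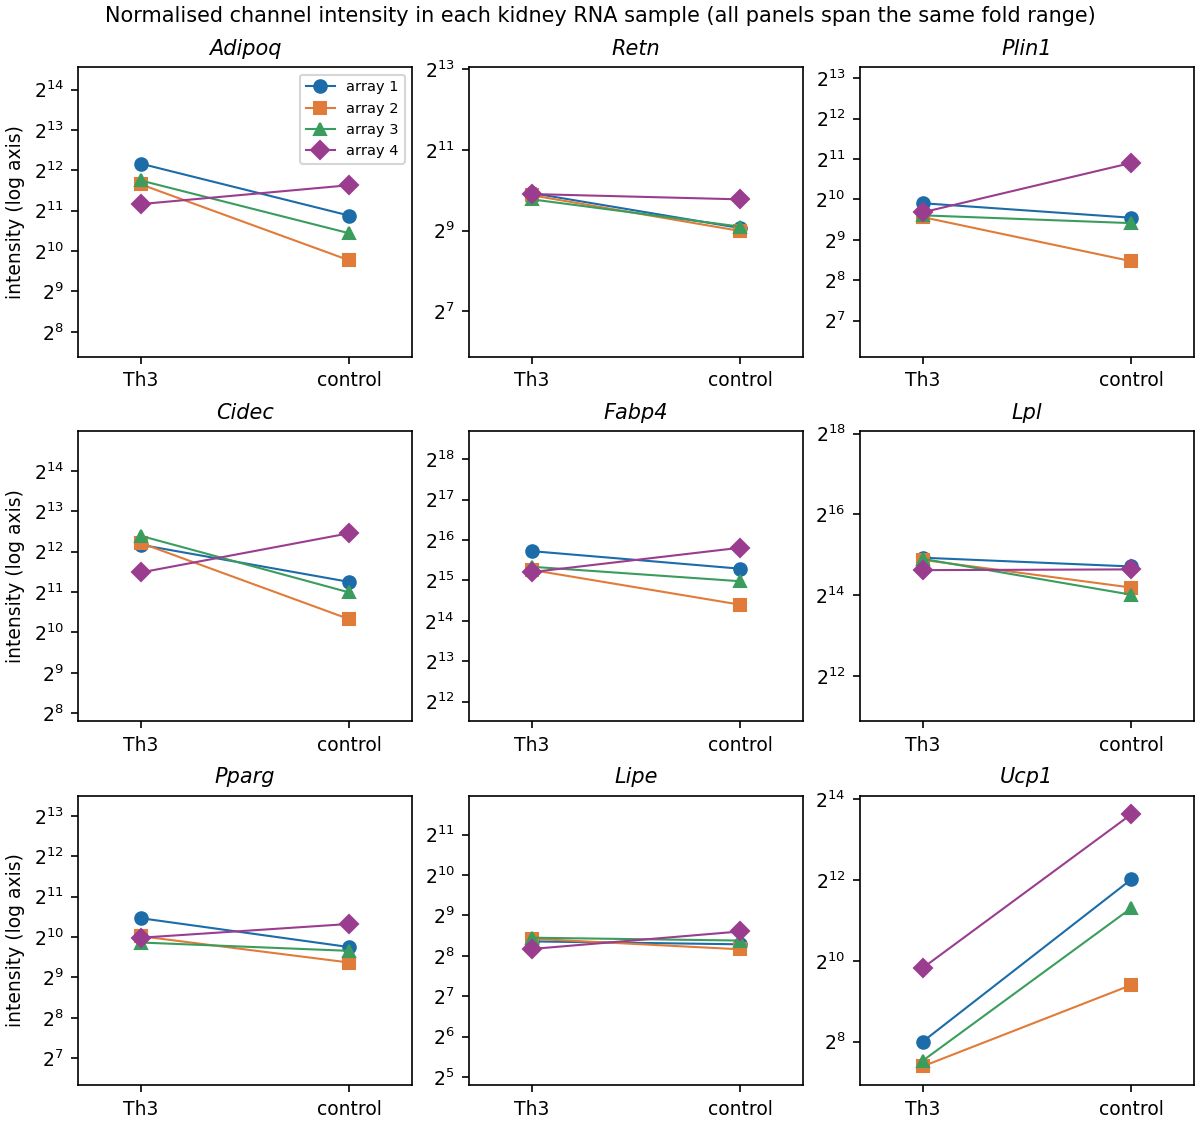
Normalised intensity (vertical axis, log scale with base 2, the same fold range in every panel) of the Th3 sample (left) and the control sample (right) of each array, joined by a line, for 8 adipocyte genes and Ucp1. Th3 points lie closer together than control points for all 8 adipocyte genes, and the line of array 4 slopes up to the control sample for all of them but Retn, while all 4 Ucp1 lines do.

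Ucp1 went the other way from the adipocyte genes on arrays 1 to 3 and was lower in the Th3 sample on every array. Its intensity was 256.1, 167.7, 184.6 and 907.2 in Th3 samples, against 4147, 677.2, 2534 and 12677 in control samples. Within each array the control sample was far brighter, but the Th3 sample of array 4 exceeded the control sample of array 2, so the 2 groups overlap. The log2 ratios were -4.02, -2.01, -3.78 and -3.80, with a mean of -3.40 ± 0.93 (SD, n = 4), and Th3 held 9.45% of the control level (95% confidence interval -4.08 to -2.73 in log2, adjusted p 0.00156). The value of array 2 depends on the background step: it was -2.68 without background correction and -3.51 with the scanner software's processed signals. The authors' deposited table lists -3.13 for array 2, and a signed fold of -14.5 with an adjusted p of 8e-05. The control samples had the order of Adipoq, Plin1, Cidec, Fabp4 and Pparg, with array 4 first, then 1, 3 and 2, and spanned 18.7-fold. In Th3 samples Ucp1 had that order too and spanned 5.41-fold, but Adipoq had its lowest Th3 value on array 4, where Ucp1 had its highest.

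Set against each adipocyte gene on the same array, the log2 ratio of Ucp1 was the lower on 4 of 4 arrays for all 8 genes. The mean difference, Ucp1 minus the gene, was -4.41 ± 0.94 for Adipoq, -4.04 ± 0.86 for Retn, -4.21 ± 1.07 for Cidec and -3.51 ± 0.81 for Plin1 (SD, n = 4). For Fabp4 it was -3.67 ± 0.75, for Lpl -3.85 ± 0.85, for Pparg -3.71 ± 0.87 and for Lipe -3.40 ± 0.80. The single difference nearest to 0 was -2.28, on array 2 for Lipe. The exact two-sided sign-flip permutation test found 2 of 16 sign patterns as extreme for each of the 8, a p of 0.13 before and after adjustment over the 8, which is the smallest that 4 arrays allow, so this test cannot pass a threshold of 0.05. The differences share the Ucp1 values and are not independent of each other.

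**Figure D4:**
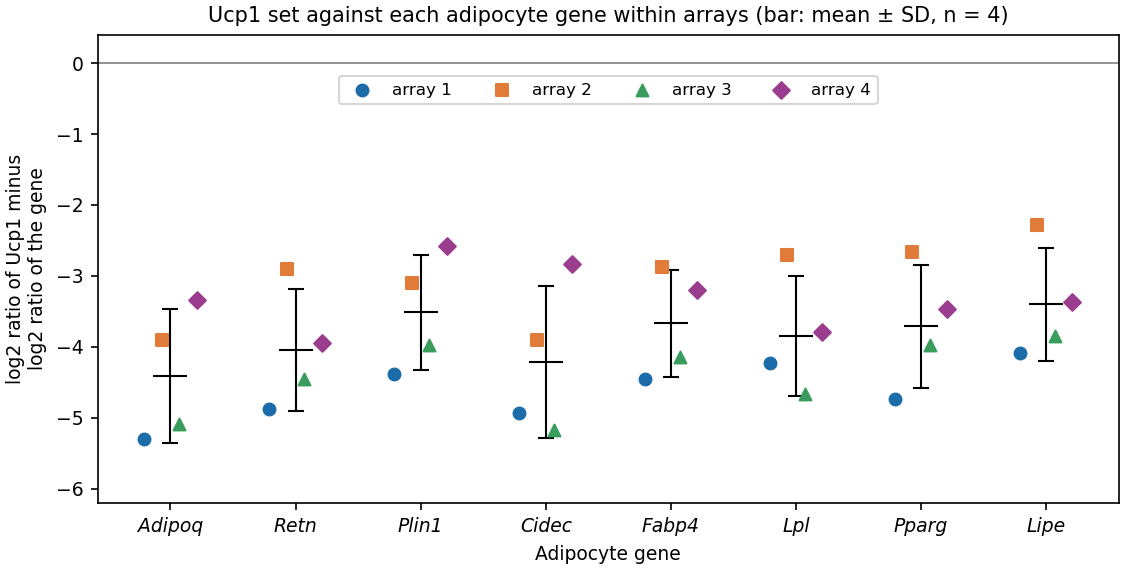
Log2 ratio of Ucp1 minus that of each adipocyte gene on the same array (vertical axis), 1 point per array, with black bars for the mean ± SD (n = 4). All points lie below 0, from -5.30 for Adipoq on array 1 to -2.28 for Lipe on array 2.

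Ucp1 was 1 of 4 brown fat genes called lower, of 13 tested among 20 listed (10.6% of all genes), and none was called higher (10.9%). The other 9 did not pass, and the median log2 ratio of the 13 was -0.12, against 0.00 over all genes. Of these 9, Plin5 (0.19), Prdm16 (0.16), Ebf2 (0.07) and Ppargc1a (0.06), named after their values were seen, had means above 0. The rest of the 9 had means below 0. Cox8b, a subunit of cytochrome oxidase found in brown fat and muscle, had log2 ratios of -1.68, 0.02, -1.18 and -2.07 and a mean of -1.23 ± 0.91 (adjusted p 0.0234). The other called genes, named after their values were seen, were Cidea, a droplet protein of brown fat (-0.73, -0.01, -1.48 and -2.23, adjusted p 0.00595), and Acot11 (mean -0.23, adjusted p 0.0437). Cidea and Cox8b were near 0 on array 2, where Ucp1 was also nearest to 0. With the pairs of arrays as a random block 1 was called lower, Ucp1, where 3.14% of all genes were lower. Cidea had an adjusted p of 0.0916 in that fit and Cox8b one of 0.0813. The calls lower numbered 2 without the dye term (5.04% of all genes) and with robust variances on an intensity trend (10.7%).

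Other genes of the fat cell moved in both directions. Of 30 tested among 32 listed, 7 rose (10.9% of all genes), 5 fell (10.6%) and 18 did not pass. The 30 had a median log2 ratio of 0.01, and many of them are also used by tubule cells. Among the called genes the largest increases were those of Gpihbp1, which holds lipoprotein lipase on capillary endothelium, at 1.11 ± 0.04 (2.16-fold, adjusted p 0.00032), and of Acsl1, which activates fatty acids, at 1.05 ± 0.46 (adjusted p 0.00796). The largest decreases among them were those of Fasn, the fatty acid synthase, at -0.90 ± 0.56 (adjusted p 0.0141, and 0.0570 with the random block), and Scd1, a desaturase, at -0.83 ± 0.38 (adjusted p 0.00707). Other genes of fatty acid synthesis in the list, named after their values were seen, did not pass: Acaca had -0.01, Acly -0.12 and Elovl6 -0.18. Gpd1, Aqp7 and Cebpa, named after their values were seen, were the other 3 that fell. Gpihbp1 had nearly the same ratio on every array, while its partner Lpl spread over arrays with an SD of 0.42.

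Some genes of this list had the pattern of Adipoq over arrays. Plin4, a droplet coat protein of fat cells, gave 0.99, 1.46, 0.78 and -0.16 and passed as higher (mean 0.77 ± 0.68, adjusted p 0.0181, and 0.115 with the random block). Cfd, which encodes the fat-cell serine protease adipsin and was named after its values were seen, gave 0.46, 2.11, 2.10 and -0.38 and did not pass (mean 1.07 ± 1.24, adjusted p 0.117). In the control samples both had the order of Adipoq.

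By distance over the 4 log2 ratios, the named genes nearest to Adipoq were Cyp24a1 (0.53), Cidec (0.63), Hp (0.78), Plin4 (0.80) and Apol6 (0.88), where the value is the Euclidean distance in log2 units. Cyp24a1, the enzyme that inactivates vitamin D and a gene of the kidney tubule, gave 1.49, 1.62, 1.22 and -0.06. Hp, which encodes the haemoglobin-binding protein haptoglobin, gave 1.70, 1.88, 1.45 and 0.18. The genes nearest to Ucp1 were much farther from it: Kap (1.09), a kidney gene under androgen control, Hbb-bt (1.48), Igh-VJ558 (2.85), Jchain (3.18) and Adam5 (3.47). With 4 arrays such nearness describes these samples only.

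Markers of other cells that a kidney sample can hold moved as follows, and their part in the adipocyte results was not tested. In limma's fit with the dye term, 10.9% of all genes passed as higher and 10.6% as lower. Of 12 endothelial genes 1 rose, Vwf, at 1.08 ± 0.17 (adjusted p 0.00073), and none fell. Of 11 macrophage genes tested 2 rose and 6 fell, led by Itgax (-0.99 ± 0.29) and Ccr2 (-0.96 ± 0.48), and their median by array was 0.16, -0.14, -0.61 and -0.72. With the random block 0 macrophage genes passed as higher and 2 as lower, Itgax and Ccr2, and without the dye term 0 and 3. Over all genes 3.66% passed as higher and 3.14% as lower with the random block, and 6.25% and 5.04% without the dye term. In limma's fit the dye terms of Ccr2 (adjusted p 0.0424), Lyz2 (0.0388) and Mrc1 (0.0441) passed the threshold. Lyz2, 1 of the 6 that fell and named after its values were seen, had 0.45, 0.15, -1.28 and -1.86 on arrays 1 to 4. Of 8 genes of mesothelium and connective tissue 2 rose, Msln (0.64 ± 0.43) and Dcn (0.55 ± 0.24), and 2 fell, Dpt (-0.33 ± 0.20) and Col1a1 (-0.29 ± 0.23). With the random block Dcn alone of these 4 passed, and without the dye term Dpt and Col1a1 did not.

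The counts of this paragraph stand beside 10.9% of all genes higher and 10.6% lower, unless another fit is named. Of 4 adrenal markers 0 passed, and 0 had an unadjusted p under 0.05 in limma's fit, with the smallest p at Star (-0.07 ± 0.09, adjusted p 0.395). Of 6 skeletal muscle genes 1 fell, Pvalb (-0.45 ± 0.22). Of 15 genes of the proximal tubule and of gluconeogenesis, the pathway to which Pck1 belongs, 3 rose and 5 fell. G6pc, the last enzyme of glucose release, was higher (0.58 ± 0.56, adjusted p 0.00454), as was Slc4a4, a bicarbonate carrier (0.45 ± 0.26, adjusted p 0.0147). Slc22a6, an organic anion carrier, was lower (-0.80 ± 0.11, adjusted p 0.00106), as was Slc34a1, a phosphate carrier (-0.44 ± 0.26, adjusted p 0.00379). With the random block, where 3.66% of all genes passed as higher and 3.14% as lower, Slc22a6 alone of the 15 passed. In that fit G6pc had an adjusted p of 0.121, Slc4a4 one of 0.0586 and Slc34a1 one of 0.0539. G6pc was at 0.30 and -0.07 on arrays 1 and 2 and at 1.04 and 1.06 on arrays 3 and 4, and its dye term passed the threshold (adjusted p 0.0497). Among the 10 kidney markers 3 fell and none rose, with Kl at -0.60 ± 0.12.

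The stretches just upstream of Adipoq and Ucp1 are shown because both are genes of fat cells and their mean log2 ratios had opposite signs. RefSeq promoter windows (build GRCm38.p6) were matched for 7 of the 9 measured genes and for Ucp1, 12 windows in all, and 5 motifs were searched on both strands in their 300 bases. The direct repeat bound by the Pparg product, which is AGGTCA given 2 times with 1 base between, was in 0 of the 12 windows and in 0.0396% of 32851 windows of all genes. Its half-site AGGTCA was in windows of Pparg and Ucp1 and in 16.3% of all. The motif TTGCNNAA of C/EBP factors was in windows of Cidec, Lep, Plin1 and Pparg (10.8% of all), CCAAT in those of Adipoq and Pparg (37.4%) and TATAAA in 1 of Pparg (13.6%). A match describes these letters only. The 250 bases before the start follow, 5′ to 3′ on the plus strand, for Adipoq at chr16:23146286-23146535 and for Ucp1 at chr8:83290098-83290347. Capitals mark the CCAAT motif, read as ATTGG on the other strand, in Adipoq, and AGGTCA in Ucp1.
Adipoq promoter: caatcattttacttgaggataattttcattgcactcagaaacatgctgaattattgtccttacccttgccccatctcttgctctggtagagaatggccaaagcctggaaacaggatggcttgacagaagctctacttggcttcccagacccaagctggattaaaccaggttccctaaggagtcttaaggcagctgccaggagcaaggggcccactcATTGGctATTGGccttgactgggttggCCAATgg
Ucp1 promoter: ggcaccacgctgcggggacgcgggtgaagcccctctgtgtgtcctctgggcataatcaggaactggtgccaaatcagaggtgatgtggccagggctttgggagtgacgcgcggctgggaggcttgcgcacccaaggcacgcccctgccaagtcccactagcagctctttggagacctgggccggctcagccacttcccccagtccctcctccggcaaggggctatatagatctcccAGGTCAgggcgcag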

How the data were processed

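Per the file headers, the deposited scanner files hold mean spot and local background intensity values from Feature Extraction 9.5.3.1, log10 ratios (red over green, after the software's own processing), and flags, with array positions on mm8. The authors' deposited table holds a log2 ratio per array, a signed fold (a score whose rule the sources used here do not state) and an adjusted p-value of a test not named there. Per the labels' protocols, total RNA was amplified linearly into labelled cRNA.

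In R 4.3.3 with limma 3.58.1 (data.table at version 1.17.8), mean signals were corrected by normexp (offset 50) and normalised by loess (span 0.3, 4 iterations), with outlier and control spots at weight 0. The 43379 spots gave 1 mean per probe. Probes passed (26434 did) if well above background on all 4 arrays in the Th3 or the control channel, with values on at least 3. Each gene was read from its brightest passing probe. Names came from RefSeq (GRCm38.p6) by accession for 23374 probes, by symbol for 6733 and by synonym for 2919, and 8148 kept the file's name. Ratios turned to Th3 over control were fitted with a dye term (2 residual and 4.52 prior degrees of freedom), and p-values were adjusted over all genes. A ± is the SD of the ratios over arrays, and a number without it is a mean or single value. With an array left out, the log2 ratio of a gene is the value fitted with the dye term. Channel intensities are those after loess and Aquantile, and are not compared between probes. The number of arrays limits the precision. The fit was tested on simulated data.

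Named genes were the members, Ucp1, up to 2 called genes per direction of each other list (or that with the smallest p), and the 5 genes nearest to Adipoq and to Ucp1. The members and lists were chosen with earlier results of these data known. Alternatives covered background correction, normalisation, the filter, dye term, probe choice, variances, each array left out and the authors' ratios.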

Additional observations from a re-analysis of the deposited data

Results flagged for a closer look

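Of 40 genes whose 4 ratios were checked for a sample far from the others by Dixon's test, 2 were flagged. That is about the share that chance flags, 1 group in 20. For Ucp1, array 2 had a log2 ratio of -2.01 while arrays 1, 3 and 4 had -4.02, -3.78 and -3.80, a gap of 0.881 of the whole range. This gap depends on the processing: it was 0.825 without background correction, 0.757 with median centring, 0.481 with the scanner software's processed signals and 0.713 in the authors' ratios, all under the critical value, and array 2 had -2.68, -1.65, -3.51 and -3.13 there. The control sample of array 2 was also the lowest of the 4 control samples for Ucp1, at an intensity of 677.2. For Slc4a4, array 4 had 0.84 while arrays 1 to 3 had 0.31, 0.34 and 0.34, a gap of 0.939 of the range. It was 0.835 without background correction, 0.792 with the processed signals and 0.532 with median centring, where array 4 had 0.45 and was not the farthest. No adipocyte gene met this rule, although array 4 was the lowest for all 8.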

How the results depend on the processing

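Retn and Ucp1 passed under every tested setting that kept all 4 arrays. Over all settings the log2 ratios ran from 0.40 to 0.88 for Retn and from -4.06 to -2.90 for Ucp1, with fitted values where an array was left out. Ucp1 minus each gene stayed below 0 in every setting, from -5.13 to -3.17. Adipoq did not pass in 5 settings and kept its direction in all. Its adjusted p was 0.0670 with the scanner software's processed signals, 0.0782 without the filter on dim probes, 0.110 without the dye term, 0.158 with the pairs of arrays as a random block (correlation 0.18) and 0.120 when variances were fitted robustly with a trend on intensity. In each of these 5 settings 1 adipocyte gene, Retn, passed as higher. With median centring 4 passed, as Lpl (0.53) and Pparg (0.35) joined. With an array left out, only fitted log2 ratios are given. For 6 of the 8 genes they follow in turn: Adipoq, Retn, Cidec, Fabp4, Lpl and Pparg. Without array 4 these ratios were 1.45, 0.78, 1.40, 0.50, 0.67 and 0.45. Without array 3 they were lower, at 0.56, 0.50, 0.22, 0.02, 0.22 and 0.17. Cidec had 1.05 and Lpl 0.56 without array 1, and Pparg had 0.32 without array 2. Plin1 and Lipe are given below. Over all genes 1102 were higher and 888 lower without the dye term, 645 and 554 with the random block, and 1144 lower with median centring.

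Among the 8 genes and Ucp1, signs turned only for log2 ratios that had not passed. With an array left out, the fitted log2 ratio of Plin1 ranged from -0.25 (without array 3) to 0.46 (without array 4), with -0.08 without array 2. On arrays 3 and 4 alone the mean of Plin1 was -0.52, where Fabp4 was -0.12 and Pparg -0.07. That split by dye orientation was chosen after seeing the data. Lipe was 0.04 without background correction, 0.07 with the processed signals, 0.00 with median centring, 0.04 in the authors' ratios and 0.17 on arrays 1 and 2 alone. Its fitted log2 ratio with an array left out ran from -0.13 (without array 3) to 0.12 (without array 4), with 0.04 without array 1. The cause was not tested. Of the other fat-cell genes 3 fell with the random block (3.14% of all genes). With an array left out, 1 dye orientation has a single array, assumed to vary like the other. Calls from those fits are therefore not counted. That single array weighs as much there as the 2 arrays of the other orientation, so a fitted log2 ratio is not the plain mean of the arrays kept. All arrays share 1 slide and 1 scan time, so the slide was not run as a block. No paired analysis was possible because the 4 ratios form 1 group, and each ratio already pairs a Th3 with a control sample.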
